A study of Mus musculus with 16 samples.

Results

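The genes described here lie between 10 and 20 Mb on mouse chromosome 7 (mm10), a gene-dense stretch in which expression differed between RGSz1 knockout (KO) and wild-type (WT) periaqueductal gray. A member is any gene in the count files that starts in this window and has at least 10 counts in 4 or more of the 16 libraries. The rule leaves out 3 genes by name and symbols beginning with Rpl, Rps or Kcn, which removed 5 genes. Of 334 annotated genes in the window, 210 were below the count rule, 139 of them at 0 in every library, and 119 were members. These 119 genes stand against 18331 genes of the whole series that met the same count rule. The window was chosen because KO and WT libraries had been seen to differ in it, so the KO to WT values below are a description and carry no test.

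The study measured polyA RNA of the periaqueductal gray, a midbrain region that controls descending pain inhibition and is a main site of opioid action, in male mice. There were 4 groups of 4 libraries: WT naive, WT morphine, KO naive and KO morphine, where KO is a knockout of RGSz1, the G protein regulator encoded by Rgs20 on chromosome 1. Each library pooled tissue punches of 2 animals, so a library is not a single mouse, and animal age, strain, morphine dose, route and duration, and which part of Rgs20 was deleted, are not stated in the labels. KO and WT below mean the genotype on the label.

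Background on these genes helps to read the values. This part of mouse chromosome 7 corresponds to a gene-rich arm of human chromosome 19, with clusters of zinc finger transcription factors, an apolipoprotein cluster, DNA repair genes, the myotonic dystrophy protein kinase gene and many housekeeping genes. Apolipoprotein C1, encoded by Apoc1, is a small lipid-carrying protein of plasma lipoproteins that is also made by glia and macrophages. The same window holds large families used in other organs, such as vomeronasal pheromone receptors, oocyte homeobox genes, and the carcinoembryonic antigen and pregnancy-specific glycoprotein genes of placenta and epithelia. In the periaqueductal gray libraries none of the 49 annotated vomeronasal receptor genes, 46 Obox genes or 12 sulfotransferase genes reached the count rule, and 3 of 24 Ceacam and Psg genes did.

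Members were mostly protein-coding, 104 of 119. The rest were 5 antisense genes, 4 processed pseudogenes, 2 lincRNAs and 4 of other kinds. Mean TMM-scaled CPM, the reads of a gene relative to all reads counted in the library, ran from 0.192 to 1130, with a median of 10.2. Per kb of exon the highest level was that of Calm3, a calmodulin gene, at 466 CPM per kb, followed by Pnmal2, a paraneoplastic antigen family gene, at 227 CPM per kb. A total of 22 members had a mean under 1 CPM, and 44 overlapped another annotated gene. Library totals over genes ran from 19.1 M to 55.0 M counts.

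Rgs20 did not separate the labels. Its level was 11.4 to 14.4 CPM across all 16 libraries, and KO minus WT was -0.02 ± 0.07 (log2, SE) in naive and -0.11 ± 0.07 in morphine libraries. The gene's total count therefore gave no check of the genotype labels.

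One library stood apart within the block. For each member a library's place was scaled so that 0 is the mean of WT naive and 1 the mean of KO naive on log2(CPM + 0.1). Over the 6 members called between naive genotypes, KO morphine replicate 1 had a median place of 0.17, beside 1.08, 0.88 and 1.07 for KO morphine replicates 2, 3 and 4. Over 7 called genes elsewhere on chromosome 7 it stood at 0.22, beside 0.92, 0.99 and 0.60. It stood at 0.81 over 6 called genes within 10 Mb of Rgs20 on chromosome 1, and at 0.77 over 6 called genes between 20 and 32 Mb on chromosome 12. Over 155 called genes outside the block its place was 0.63, the lowest of the 4 KO morphine libraries. The library thus sat at the WT end in the block and nearer the KO end on chromosomes 1 and 12. Values for which this library matters most are given with and without it, and why it stands apart was not tested. WT naive replicate 1 also leaned toward KO, at 0.37, and WT naive replicate 2 the other way, at -0.35.

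**Figure D1:**
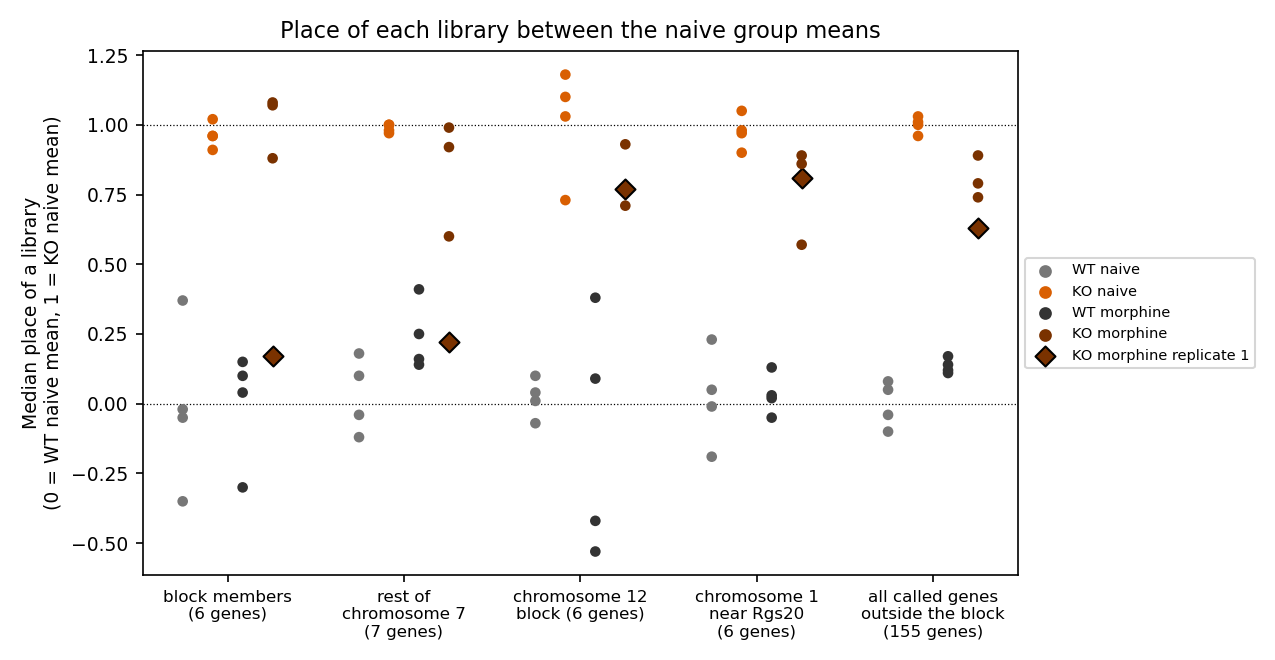
Median place of each of the 16 libraries between the WT naive mean (0) and the KO naive mean (1), for 5 sets of genes called between naive genotypes. Points are libraries, colours are groups, and the diamond is KO morphine replicate 1, which sits at 0.17 for the block members and at 0.81 for genes near Rgs20.

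The members called between naive genotypes were lower in KO for Igsf23, Gm16251, Exoc3l2, Apoc1 and Trappc6a, and higher for Ceacam9. These 6 of 118 tested members (5.08%; Mir343 was below the filter of the fit) passed an adjusted p of 0.05 in edgeR, where 0.906% of all 18111 tested genes did. Of these, 1 was higher in KO (0.442% of all genes) and 5 were lower (0.464%). In morphine libraries 1 member, Trappc6a, passed and was lower in KO (0.847%, beside 0.53% of all genes, or 0.276% lower). Averaged over both treatments, a contrast added after seeing the data, 15 passed (12.7%, beside 1.53%), 3 higher (0.685% of all genes) and 12 lower in KO (0.845%). Nothing is read from these shares, since the window was chosen on the same contrast. Of these members, 3 met the count rule through 1 genotype: Ceacam9 had 10 or more counts in 4 KO and 0 WT libraries, Igsf23 in 1 KO and 5 WT libraries, and Gm16251 in 1 KO and 8 WT libraries. Each entered through the genotype in which it was higher, so its place among the members is not independent of the genotype values. C5ar2, Ptgir and Mir343 entered through 1 genotype too, 6 members in all.

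With each of 16 libraries left out in turn, Apoc1 and Trappc6a stayed called between naive genotypes. Exoc3l2 was no longer called without WT naive replicate 2 or KO naive replicate 2, 3 or 4. Igsf23 was not called without WT naive replicate 2 or 3 or any 1 of the KO naive libraries. The Ceacam9 call was lost in 8 of the 16 cases and the Gm16251 call in 10, among them each KO naive library. Trappc6a was no longer called in morphine libraries without WT morphine replicate 2 or KO morphine replicate 2.

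Markers of other cell types also differed among these libraries. WT naive replicate 2 had the highest sum of meningeal fibroblast markers in its group, whose range was 42.9 to 315 CPM, beside 49.8 to 52.7 CPM in KO naive libraries. The same library was the highest of the WT naive group for the 5 members lower in KO, and the lowest for Ceacam9. Serotonin neuron markers summed to 125 to 628 CPM in WT naive and 57.9 to 243 CPM in KO naive libraries, with a median log2 value of -0.91. None of the 5 meningeal or 6 serotonin markers was called between genotypes, and 1 of 3 pericyte markers was called lower in KO naive libraries. The pericyte list as a whole was not lower. It summed to 113 to 143 CPM in WT naive and 120 to 150 CPM in KO naive libraries, with a median log2 value of 0.04. Without WT naive replicate 2 the naive log2 values were -1.47 for Apoc1, -1.90 for Exoc3l2, -0.50 for Trappc6a, -2.41 for Gm16251, -3.77 for Igsf23 and 1.66 for Ceacam9, and 2 members were called in place of 6. That fall was not particular to this library, since the count was also 2 without KO naive replicate 3 or without KO naive replicate 4. The part of these markers in the members' values was not tested.

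The upstream sequences of 3 of the 6 members whose KO and WT libraries did not overlap in either treatment are shown here, so that a reader can see the starts of the gene with the largest fold among those lower in KO, the one that was higher, and an abundant one. Each is the 250 bases before the RefSeq start on GRCm38.p6, on the plus strand of chromosome 7, 5′ to 3′. Capitals mark matches on either strand to 4 motifs. These were the TATA box, spelled TATAAA. The second motif was the CCAAT box, spelled as in its name. The third was the GC box, with the letters GGGCGG. The last was the E-box, with the letters CACGTG.

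Exoc3l2 (chr7:19463037-19463286, plus strand): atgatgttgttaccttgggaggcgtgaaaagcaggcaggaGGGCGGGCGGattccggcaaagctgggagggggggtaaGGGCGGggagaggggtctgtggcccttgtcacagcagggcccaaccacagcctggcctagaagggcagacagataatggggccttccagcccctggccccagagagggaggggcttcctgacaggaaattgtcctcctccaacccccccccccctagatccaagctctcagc
Ceacam9 (chr7:16721679-16721928, plus strand): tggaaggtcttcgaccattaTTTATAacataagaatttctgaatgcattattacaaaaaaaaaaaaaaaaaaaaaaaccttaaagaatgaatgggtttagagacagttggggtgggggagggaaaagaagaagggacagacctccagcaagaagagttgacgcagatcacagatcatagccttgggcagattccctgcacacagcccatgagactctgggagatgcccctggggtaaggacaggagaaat
Kptn (chr7:16119626-16119875, plus strand): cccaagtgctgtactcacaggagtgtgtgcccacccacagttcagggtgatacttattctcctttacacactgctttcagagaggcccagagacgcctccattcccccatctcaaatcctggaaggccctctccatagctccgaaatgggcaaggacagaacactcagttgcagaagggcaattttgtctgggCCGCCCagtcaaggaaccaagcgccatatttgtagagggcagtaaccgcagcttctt

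The Exoc3l2 window held 3 GC box matches, of which 2 overlap, and was 63.6% G and C. The Kptn window held 1 GC box match on the reverse strand at 53.2% G and C. The Ceacam9 window held 1 reverse-strand TATA match near its far end, no GC box match, and was 42.4% G and C. Among 32851 RefSeq windows of the same length, 32.7% held a GC box match, 12.4% a TATA match, 33.8% a CCAAT match and 6.02% an E-box match. The windows are a description of the reference sequence, and 89 of the 119 members matched an entry by symbol.

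Exoc3l2 encodes a relative of the exocyst subunit Sec6, known from endothelial cells. It lies at 19463331 to 19496762 on the plus strand. The WT naive libraries had 1.58, 2.87, 2.35 and 2.24 CPM and the KO naive libraries 0.613, 0.539, 0.540 and 0.526 CPM. The WT morphine libraries had 2.14, 4.02, 2.07 and 1.48 CPM and the KO morphine libraries 1.46, 0.793, 0.604 and 0.283 CPM. All 8 KO libraries were below all 8 WT libraries, with KO morphine replicate 1 just under the lowest WT library. The KO to WT ratio was 0.245 in naive libraries (log2 -2.03 ± 0.37) and 0.326 in morphine libraries (-1.62 ± 0.38), or -2.21 on the log2 scale without KO morphine replicate 1. The KO values rest on 11 to 46 counts per library. The 5 endothelial markers summed to 134 to 171 CPM in WT naive and 153 to 176 CPM in KO naive libraries, and none was called between genotypes.

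Trappc6a encodes a subunit of the TRAPP complex, which tethers vesicles at the Golgi. It starts 11633 bases after the end of Exoc3l2. Its levels were 4.62, 6.35, 5.69 and 5.66 CPM in WT naive and 3.73, 3.96, 3.60 and 3.84 CPM in KO naive. They were 4.87, 6.05, 4.90 and 4.92 CPM in WT morphine and 3.67, 3.01, 3.47 and 3.76 CPM in KO morphine. Here too the 8 KO libraries lay below the 8 WT libraries, and KO morphine replicate 1 stood with the other KO libraries at a place of 1.08. The ratio was 0.676 in naive (log2 -0.57 ± 0.10) and 0.678 in morphine libraries (-0.56 ± 0.11). These 2 genes were the members with no overlap across all 16 libraries, which 0.48% of all tested genes showed, 0.265% with KO below.

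Apoc1 lies at 19689481 to 19692660 on the minus strand and overlaps no other annotated gene. WT naive libraries had 2.07, 3.90, 3.16 and 2.04 CPM, and KO naive libraries had 0.902, 0.726, 1.01 and 0.921 CPM. WT morphine libraries had 2.82, 3.34, 2.27 and 2.73 CPM, and KO morphine libraries had 2.12, 1.74, 1.76 and 1.24 CPM. KO was below WT within each treatment without overlap, by a ratio of 0.313 in naive (log2 -1.67 ± 0.22) and 0.614 in morphine libraries (-0.70 ± 0.21). KO morphine replicate 1, the highest of its group, stood above the 2 lowest WT naive libraries, and without it the morphine value was -0.84. In bulk tissue, fewer cells of a type and less RNA per cell cannot be told apart. The microglia markers summed to 185 to 227 CPM in WT naive and 195 to 212 CPM in KO naive libraries, and the 5 astrocyte markers to 1040 to 1280 and 1010 to 1130 CPM. None of the 6 microglia or 5 astrocyte markers was called between genotypes in either treatment.

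The last members of the window, Gm16251 and Igsf23, were low throughout. Gm16251 is an antisense RNA gene that overlaps the start of Pvr, a cell adhesion receptor gene on the other strand. The library kit does not keep the strand, so reads in the shared stretch cannot be assigned. Gm16251 had 0.638, 1.26, 0.83 and 0.516 CPM in WT naive and 0.0541, 0.141, 0.144 and 0.175 CPM in KO naive libraries. Pvr itself differed little, with log2 values of 0.12 ± 0.07 in naive and -0.22 ± 0.08 in morphine libraries. Under morphine Gm16251 had 0.616, 0.818, 0.432 and 0.654 CPM in WT, against 0.633, 0, 0.0503 and 0.0515 CPM in KO. KO morphine replicate 1 was therefore inside the WT range while the other KO morphine libraries were at or near 0. Its log2 value was -2.71 ± 0.59 in naive and -1.55 ± 0.62 in morphine libraries, and -3.89 in the latter without that library.

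Igsf23 encodes an immunoglobulin superfamily protein. It had 0.113, 0.66, 0.316 and 0.369 CPM in WT naive and 0.018, 0.0234, 0.036 and 0 CPM in KO naive libraries. The KO naive group held 3 counts in all and the WT naive group 68, a ratio of rates of 0.0431 with a 95% exact binomial interval from 0.00867 to 0.131 that covers counting error only. Under morphine WT libraries had 0.292, 0.569, 0.319 and 0.227 CPM, and KO libraries had 0.38, 0, 0.0503 and 0 CPM. As for Gm16251, the one KO morphine library inside the WT range was replicate 1. The fitted log2 value was -4.23 ± 0.91 in naive and -1.51 ± 0.74 in morphine libraries, and -4.41 in the latter without replicate 1.

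Ceacam9, a member of the carcinoembryonic antigen family best known from placenta, was the one naive call that was higher in KO. WT naive libraries had 0.263, 0.0194, 0.0987 and 0.0984 CPM and KO naive libraries 0.65, 0.375, 0.288 and 0.395 CPM. WT morphine libraries had 0.0973, 0.0356, 0.0939 and 0.0284 CPM and KO morphine libraries 0.127, 0.423, 0.201 and 0.335 CPM. The groups did not overlap within either treatment, though WT naive replicate 1 was above 2 of the KO morphine libraries. The ratio was 4.20 in naive (log2 2.07 ± 0.46) and 3.81 in morphine libraries (1.93 ± 0.60). WT libraries held 1 to 7 counts of this gene, and it belongs to a multigene family. How reads that match several relatives were counted is not stated, and read sharing was not measured here.

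**Figure D2:**
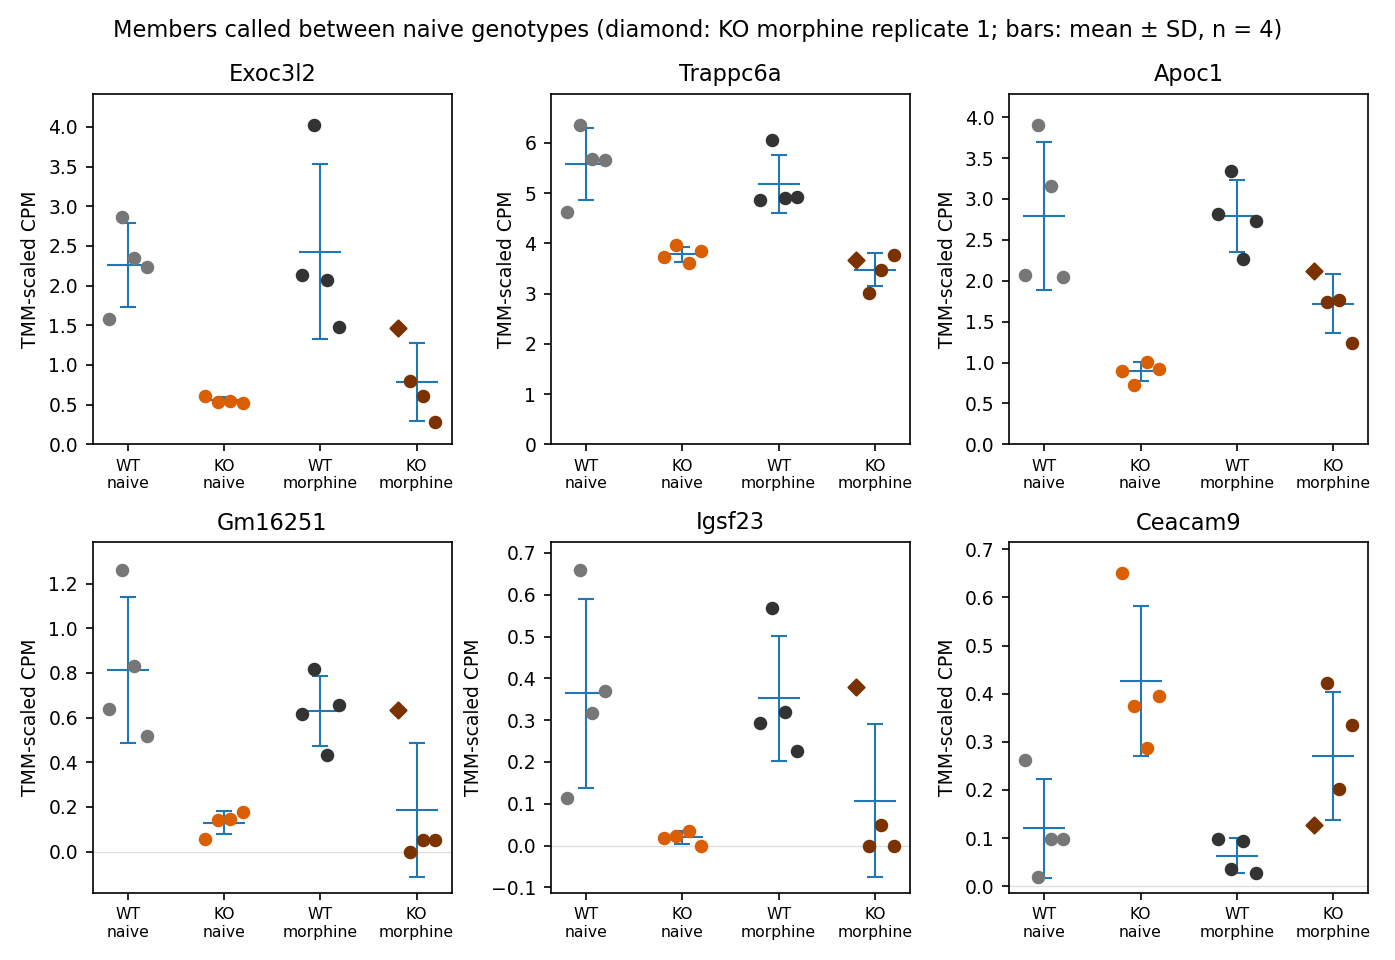
TMM-scaled CPM of the 6 members called between naive genotypes, with 1 point per library, mean and SD (n = 4) in blue, and KO morphine replicate 1 as a diamond. In Gm16251 and Igsf23 the diamond lies at 0.633 and 0.38 CPM, inside the WT range, and in Trappc6a it lies at 3.67 CPM with the other KO libraries.

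A further group of more abundant members differed by less. Kptn encodes kaptin, a part of the KICSTOR complex that restrains mTORC1. It had 15.7, 18.9, 18.3 and 15.3 CPM in WT naive and 13.9, 12.9, 15.2 and 13.6 CPM in KO naive libraries. Under morphine it had 16.3, 18.2, 16.0 and 16.8 CPM in WT and 15.3, 13.7, 11.7 and 14.0 CPM in KO libraries. KO lay below WT without overlap in each treatment, by log2 -0.30 ± 0.08 and -0.29 ± 0.08. Dhx34, an RNA helicase of nonsense-mediated decay, gave -0.29 ± 0.08 in both, with KO naive at 13.7 to 14.0 CPM and WT naive at 14.3 to 19.7 CPM. Its KO morphine libraries, at 11.3 to 14.7 CPM, lay just below WT morphine at 14.8 to 16.2 CPM.

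Other members called lower in the average of both treatments were small differences. Tmem160, which encodes a small mitochondrial membrane protein, gave log2 -0.37 ± 0.09 in naive and -0.34 ± 0.09 in morphine libraries. Gemin7, of the SMN complex that assembles spliceosomal ribonucleoproteins, gave -0.21 ± 0.07 and -0.28 ± 0.07. Sae1, a subunit of the SUMO-activating enzyme, gave -0.20 ± 0.05 and -0.16 ± 0.05. Napa, the alpha-SNAP cofactor that recycles SNARE complexes after vesicle fusion, gave -0.10 ± 0.04 and -0.11 ± 0.04, the smallest of the 15. Psg16, of the pregnancy-specific glycoprotein family, for which the same limit holds, gave -0.27 ± 0.10 and -0.36 ± 0.10. Gemin7 overlaps Zfp296 on the other strand, and reads there could belong to either gene.

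Of the members called higher in the average, Ercc2, the XPD helicase of transcription factor TFIIH and nucleotide excision repair, gave 0.26 ± 0.09 in naive and 0.31 ± 0.09 in morphine libraries. Its KO naive libraries had 17.3, 16.2, 16.5 and 16.6 CPM, above the WT naive libraries at 15.4, 12.9, 14.1 and 13.4 CPM. Under morphine KO had 11.8, 15.9, 14.7 and 15.8 CPM and WT had 11.1, 10.3, 12.3 and 12.9 CPM, so that KO morphine replicate 1 alone overlapped WT. Without it the morphine value was 0.41. Ercc2 overlaps Mir343, and it overlaps Klc3 and Gm26852 on the other strand, so reads there could belong to any of them. Klc3 gave 0.37 ± 0.16 in naive and 0.51 ± 0.17 in morphine libraries, and Gm26852 gave -0.11 ± 0.14 and 0.01 ± 0.15. Ccdc61, a centrosomal coiled-coil protein gene, gave 0.37 ± 0.10 and 0.29 ± 0.11, and its KO morphine replicate 1, at 8.03 CPM, was again the KO library inside the WT morphine range of 6.72 to 8.90 CPM. Without it the morphine value was 0.37.

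KO morphine replicate 1 was within the WT range, taken over 8 WT libraries, for 12 of these 15 members, while KO morphine replicates 2, 3 and 4 were within it for 1, 3 and 2. The 3 members for which it was below that range were Exoc3l2, Tmem160 and Trappc6a. Without this library, 4 members passed between genotypes under morphine (Ercc2, Exoc3l2, Gm16251 and Trappc6a) in place of 1, and 16 in the average in place of 15. Its absence moved the morphine log2 values of Kptn and Dhx34 to -0.35 and -0.36, and that of Ceacam9 to 2.20.

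Counting members whose KO and WT libraries did not overlap gives a wider list. Nothing is read from the shares below, since the window was chosen on the same differences. In naive libraries 25 of 118 tested members were separated (21.2%, beside 8.13% of all genes), 8 with KO above (4.14% of all genes) and 17 with KO below (3.99%). In morphine libraries 14 were (11.9%, beside 5.27%), 3 with KO above (2.25%) and 11 with KO below (3.02%). The 6 separated in both were Kptn, Dhx34, Ceacam9, Exoc3l2, Trappc6a and Apoc1. Over the 25 members separated in naive libraries, KO morphine replicate 1 had a median place of 0.13, beside 0.75, 0.69 and 0.87 for replicates 2, 3 and 4. It was within the WT range for 20 of the 25, and the others for 8, 10 and 8. Among the 25, Ceacam9, Ptgir, Gm16251 and Igsf23 met the count rule through 1 genotype. Their part in these counts is not independent of the genotype values.

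Several further members did not pass the threshold in any genotype comparison, though their fold changes were as large as those of some that did. Gng8, a G protein gamma subunit gene, had a log2 value of 0.81 ± 0.27 in naive and 0.64 ± 0.30 in morphine libraries. Pglyrp1, a peptidoglycan recognition protein gene of innate immunity, gave 0.85 ± 0.28 and 0.63 ± 0.28, and the lincRNA 9330104G04Rik gave 0.87 ± 0.43 and 0.90 ± 0.45. The last of these ranged from 0.602 to 3.68 CPM within WT naive alone, so the spread among libraries was as large as the difference. Prkd2, a protein kinase D gene, gave -0.32 ± 0.13 and -0.37 ± 0.13, and Dmpk gave -0.21 ± 0.10 and -0.32 ± 0.11. Without KO morphine replicate 1 the morphine values were 0.85 for Gng8, 0.83 for Pglyrp1, 1.05 for 9330104G04Rik, -0.43 for Prkd2 and -0.42 for Dmpk. Gipr, the receptor for the incretin GIP, gave -0.56 ± 0.16 in naive but 0.02 ± 0.16 in morphine libraries, or -0.22 without KO morphine replicate 4.

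Along the chromosome, the average called 1.53% of all tested genes. None of the 30 tested members from 10 to 16 Mb passed in the average of both treatments, and 15 of 88 from 16 to 20 Mb did. The 1 Mb stretch from 16 Mb held 6 calls among 30 tested members, and the one from 19 Mb held 7 among 48. From the start of Exoc3l2 to the end of Igsf23, a span of 487 kb with 22 members, lie 5 of the 6 naive calls. All 5 were lower in KO. The ends of the span were set at called genes, so finding calls in it was fixed in advance. Of all tested genes, 0.906% were called between naive genotypes, 0.464% lower in KO. Gm16251 and Igsf23 met the count rule through WT libraries, in which they were higher. Nothing is read from these counts, since the window was chosen on the same values. Called genes alternated with uncalled ones in that span. Bloc1s3, between Exoc3l2 and Trappc6a, gave 0.02 ± 0.08 in naive and 0.01 ± 0.08 in morphine libraries. Tomm40, the gene of the mitochondrial import pore 8653 bases beyond Apoc1, gave -0.03 ± 0.04 and -0.07 ± 0.04.

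**Figure D3:**
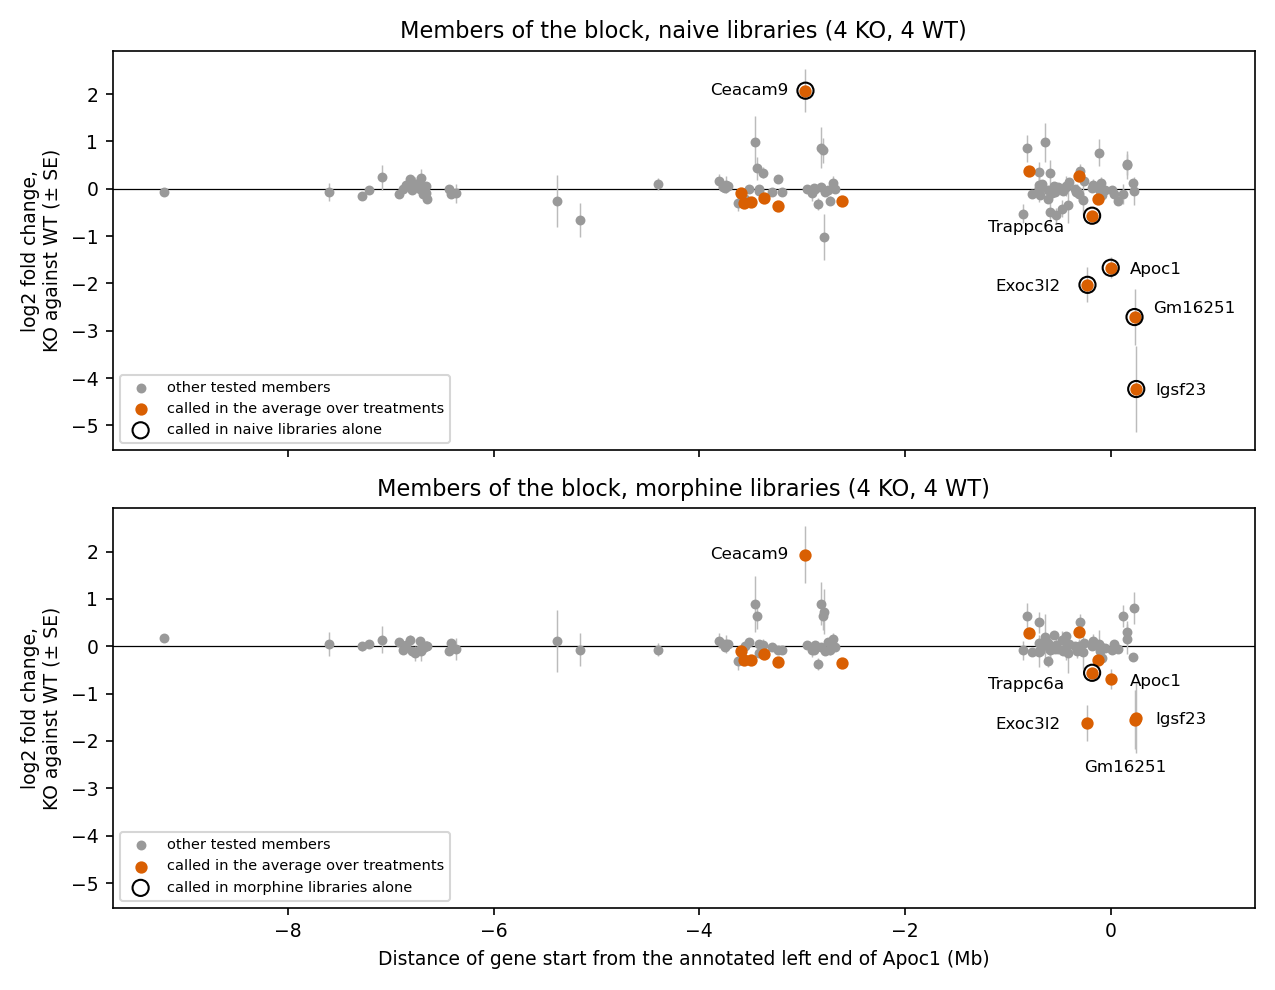
Log2 fold change of KO against WT (bars are SE) for the 118 tested members by distance from Apoc1, in naive libraries (top) and morphine libraries (bottom). Orange points passed in the average of both treatments and ringed points in that treatment alone. In the top panel 5 of the 6 ringed points lie within 487 kb around Apoc1, a span whose ends were set at called genes.

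At the left edge of the window the first members, Zik1 at 10.49 Mb and Gm10179 at 12.09 Mb, gave naive log2 values of -0.06 ± 0.07 and -0.07 ± 0.20. The nearest tested genes outside, Gm20438 at 7.98 Mb and Gm45351 at 9.87 Mb, gave 0.58 ± 0.42 and -0.17 ± 0.35. At the right edge Gm16251 and Igsf23 are the last members inside. The next tested genes outside, Zfp180 at 24.08 Mb and Zfp112 at 24.11 Mb, gave 0.26 ± 0.05 and -0.28 ± 0.06 in naive, and -0.06 ± 0.05 and -0.16 ± 0.07 in morphine libraries. At the count threshold Phf20-ps, with 10 or more counts in 6 libraries, was just inside. Cabp5 and Gm4879, with 10 or more counts in 3 and 2 libraries, were just outside.

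Set beside other stretches, the block held 15 average calls among 118 tested genes (12.7%), and chromosome 7 outside it 19 among 1210 (1.57%). The stretch between 20 and 32 Mb on chromosome 12 held 12 among 58 (20.7%), and the 42 genes within 10 Mb of Rgs20 held 8 (19%). These counts are from the contrast that chose the block, so their order was not tested. On chromosome 7 the neighbouring windows from 0 to 10 and from 20 to 30 Mb held 4 of 87 (4.60%) and 3 of 149 (2.01%). The median size of the log2 difference was 0.113 for members and 0.072 for all tested genes in naive libraries, and 0.087 and 0.067 in morphine libraries. The median signed values were near 0 (-0.019 and -0.008 for members).

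By role, the counts below are from the average of both treatments, which called 0.685% of all tested genes higher and 0.845% lower, and nothing is read from them. Of 14 zinc finger transcription factors, which include Zfp128 at 0.21 ± 0.09 and Mzf1 at -0.22 ± 0.07 in naive libraries, none passed in any genotype comparison. Of 19 genes of synapse, axon and membrane traffic, 3 were lower in the average (Napa, Kptn and Trappc6a), and none was higher. Nova2, a neuronal splicing factor gene of that list, gave -0.11 ± 0.04 and -0.12 ± 0.04. Of 7 adhesion proteins of the immunoglobulin superfamily 1 was higher (Ceacam9) and 2 were lower (Psg16 and Igsf23). Of 5 RNA processing genes 2 were lower (Dhx34 and Gemin7), of 7 genes of ubiquitin, SUMO and chromatin 1 was lower (Sae1), and of 6 DNA repair and replication genes 1 was higher (Ercc2).

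No gene passed in the average among 5 genes of the myotonic dystrophy locus, 6 developmental and neuronal transcription factors, 4 transporters and mitochondrial proteins, 3 paraneoplastic antigen family genes or 7 NF-kappa-B and immune genes. In the immune list the median log2 value was 0.343 in naive and 0.629 in morphine libraries, beside -0.003 and -0.001 over all genes. These are low genes, with a median SE of 0.249 in naive libraries. C5ar2 met the count rule through KO libraries and Ptgir through WT libraries. Nothing is read from these medians, since the window was chosen on the same contrast. C5ar1, a complement C5a receptor gene in that list, ranged from 0.313 to 0.545 CPM in WT and from 0.443 to 1.01 CPM in KO libraries. The only apolipoprotein gene among the members was Apoc1.

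The interaction, the KO minus WT difference under morphine less that in naive libraries, is built from the same differences on which the window was chosen, so its values are a description. edgeR's adjusted p of 0.05 was passed by no member and by none of the 18111 genes (percent called 0). DESeq2's Wald test and limma-voom also called 0 members. The KO minus WT value moved by 0.97 ± 0.31 on the log2 scale for Apoc1, by 0.58 ± 0.22 for Gipr and by 0.57 ± 0.25 for Gpr4. None of these was called.

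Morphine against naive was tested within each genotype. The same libraries entered the KO to WT comparisons on which the window was chosen, so these tests are not independent of that choice. In WT libraries 1 of 118 members passed (0.847%, beside 4.41% of all genes). It was lower under morphine (2.07% of all genes, with 2.34% higher) and was Qpctl, which encodes a Golgi glutaminyl cyclase that modifies peptide ends. Qpctl had 21, 20, 19.9 and 19.4 CPM in WT naive and 15.6, 16.9, 18.2 and 17.7 CPM in WT morphine libraries, which did not overlap. It fell by 0.23 on the log2 scale (-0.23 ± 0.05, edgeR adjusted p = 0.015), and the adjusted p was 0.0524 without WT morphine replicate 1. In KO libraries it had 19.9 to 21.5 CPM in naive and 19.5 to 20.8 CPM under morphine (-0.04 ± 0.05), and the interaction was not called (0.18 ± 0.07). Qpctl overlaps Fbxo46 on the other strand.

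In KO libraries 10 of 118 members passed (8.47%, beside 11.5% of all genes), 6 higher (5.67% of all genes) and 4 lower under morphine (5.83%), so the share was near that of all genes. Apoc1 rose by a ratio of 1.92 (log2 0.94 ± 0.23, edgeR adjusted p = 0.0145), with all 4 KO morphine libraries above all 4 KO naive libraries. Without KO morphine replicate 1 the log2 value was 0.80 with an adjusted p of 0.0575, and the call was also lost without KO naive replicate 2. The KO naive libraries in this comparison are those whose low Apoc1 level marked it in the genotype comparison, so the rise is not independent of that choice. In WT libraries the same comparison gave -0.03 ± 0.20 (adjusted p = 0.957). The rise in KO left Apoc1 at 1.72 ± 0.363 CPM (SD, n = 4), below 2.79 ± 0.439 CPM in WT morphine.

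Gpr4, a proton-sensing receptor gene of blood vessel cells, rose in KO libraries by a ratio of 1.74 (log2 0.80 ± 0.18, edgeR adjusted p = 0.00898). KO naive libraries had 3.86, 3.80, 3.17 and 3.77 CPM and KO morphine libraries 4.27, 7.72, 5.58 and 8.01 CPM, without overlap. WT libraries ran from 3.53 to 5.71 CPM in naive and from 5.29 to 6.26 CPM under morphine, with a log2 value of 0.24 ± 0.17 (adjusted p = 0.473). Without KO morphine replicate 1 the rises in KO were 0.96 for Gpr4 and 0.21 for Lig1. Lig1, the DNA ligase that joins replication and repair ends, rose by 0.20 ± 0.04 (adjusted p = 0.006), from 28.6 to 31.3 CPM in KO naive to 33.1 to 34.8 CPM in KO morphine libraries. Its gene overlaps Zswim9 on the other strand.

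The other members that rose under morphine in KO were Zscan18, a zinc finger gene (0.21 ± 0.06, edgeR adjusted p = 0.0242), Chmp2a, an ESCRT-III membrane scission gene (0.14 ± 0.03, adjusted p = 0.0118), and Bcam, a laminin receptor gene (0.27 ± 0.08, adjusted p = 0.031). Those that fell were Bicra, a subunit gene of a BAF chromatin remodelling complex (-0.23 ± 0.07, adjusted p = 0.0322), and Npas1, a transcription factor gene of inhibitory neurons (-0.27 ± 0.08, adjusted p = 0.0337). The splicing factor gene Clasrp (-0.14 ± 0.04, adjusted p = 0.0464) and the overlapping lincRNA Gm26890 (-0.36 ± 0.11, adjusted p = 0.0451) fell too. Their gene bodies overlap, but shared exon sequence was not measured, so how far their reads can be told apart is not known. Bicra had the same size in WT libraries (-0.23 ± 0.07, adjusted p = 0.0558) without passing there. Of the 10 calls only those of Chmp2a, Gpr4 and Lig1 held with each library left out in turn. Between naive genotypes all of these were lower in KO, by log2 -0.09 ± 0.03, -0.42 ± 0.18 and -0.11 ± 0.04. Bcam was lower there too (-0.26 ± 0.08) and Npas1 higher (0.21 ± 0.07), each opposite to its change under morphine. Clasrp alone of the calls had the same sign in the naive genotype comparison (-0.04 ± 0.04). These changes are thus not independent of the genotype values.

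Markers of cell types moved with the morphine comparison in KO libraries. All 6 oligodendrocyte markers were lower (summed CPM 8180 to 9390 in KO naive and 5610 to 7000 in KO morphine), and all 6 serotonin neuron markers were higher (57.9 to 243 and 381 to 1310). The endothelial markers, 2 of 5 lower, summed to 153 to 176 and 109 to 147 CPM, while Gpr4 was higher. Microglia markers, 1 of 6 lower, summed to 195 to 212 and 173 to 198 CPM, and astrocyte markers, 0 of 5 called, to 1010 to 1130 and 1090 to 1310 CPM. Meningeal fibroblast markers, 0 of 5 called, summed to 49.8 to 52.7 and 40.2 to 230 CPM. Pericyte markers, 2 of 3 lower, summed to 120 to 150 and 100 to 123 CPM. Called higher were 2 of 4 neuron markers, 1 of 2 dopamine neuron markers and 1 of 5 markers of the periaqueductal gray and midbrain. No marker of these lists was at 0. The part of these shifts in the members' morphine values was not tested.

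**Figure D4:**
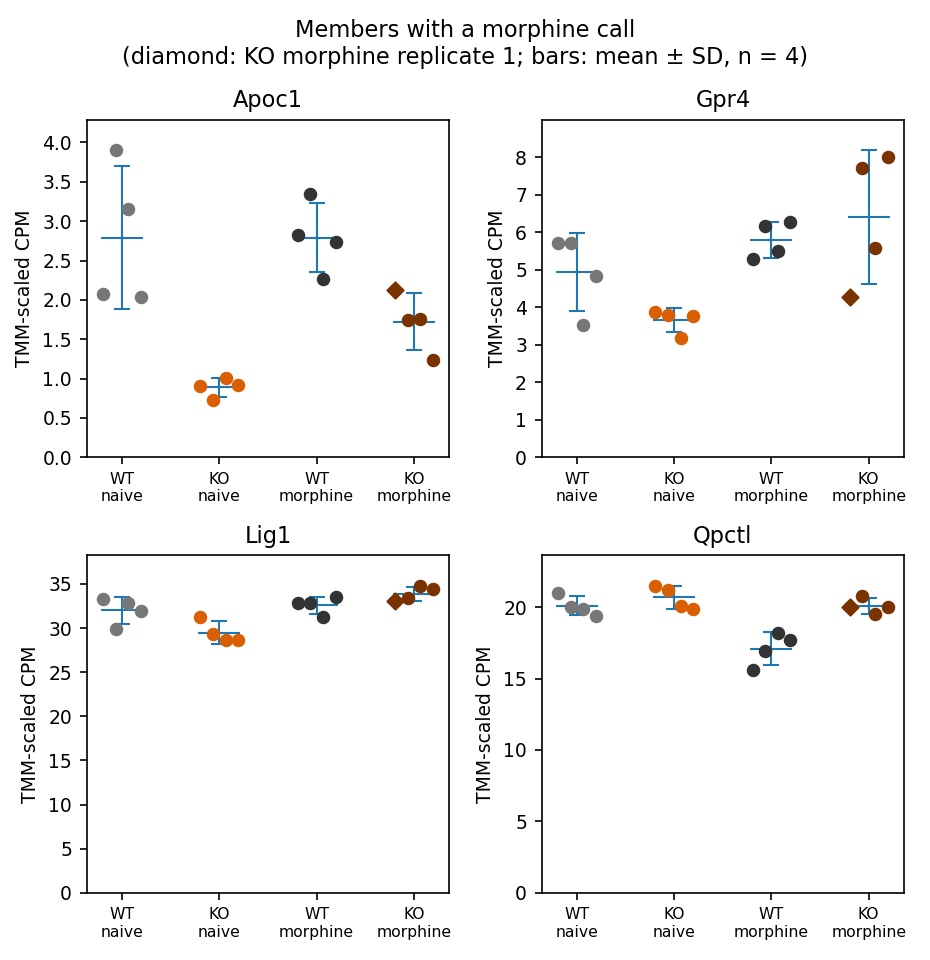
TMM-scaled CPM of 4 members with a morphine call, with 1 point per library, mean and SD (n = 4) in blue, and KO morphine replicate 1 as a diamond. Apoc1, Gpr4 and Lig1 are higher under morphine in KO libraries, and Qpctl is lower under morphine in WT libraries, at 15.6 to 18.2 CPM.

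Across the 16 libraries, after the mean of each group was removed from log2 CPM, the members whose levels followed Apoc1 most closely were Gemin7 (Pearson r = 0.84), Trim28, a corepressor of retroelements that binds zinc finger proteins (0.77), Mill2 (0.75), Sae1 (0.75) and Pnmal1 (0.72). Of the other members called in the average of both treatments, the highest were Exoc3l2 at 0.69 and Kptn at 0.68. These are descriptions over libraries that share depth and tissue composition. KO morphine replicate 1 is one of the libraries behind them. Another is WT naive replicate 2, the library with the high meningeal marker sum. It was the highest WT naive library for Apoc1 (3.90 CPM), Trim28 (141 CPM), Mill2 (1.98 CPM), Sae1 (93.4 CPM) and Pnmal1 (111 CPM). For Gemin7 (20.9 CPM) it lay below replicate 3 (21.1 CPM). The correlation largest in size was negative, -0.91 for 9330104G04Rik, which was lowest in that library (0.602 CPM).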

How the data were processed

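The deposited files hold whole-number counts of reads per gene for 16 libraries. The submitters' processing notes name HTSeq, mm10 and limma, and no source used here gives an aligner, an annotation release or how strand was set. Libraries were made with an unstranded polyA kit, per the labels' protocols. HTSeq's own tallies (38.2 to 40.6% of the total) stayed out of library sizes. Gene positions came from GENCODE M21 on GRCm38, and 37607 of 38924 identifiers matched. Genes were filtered with filterByExpr (minimum count 10), TMM-scaled and tested in 1 fit of 4 groups with edgeR 4.0.16 (R 4.3.3, quasi-likelihood, robust), with Benjamini-Hochberg adjustment over 18111 genes. Each p-value measures the spread between pooled libraries. No replicate pair looked like a duplicate (chi-square per gene of at least 3.73). The test was checked on simulated counts. DESeq2 1.42.0 and limma 3.58.1 were alternatives, with other filters, scalings, windows and left-out libraries. Members named in the text are those with the largest genotype averages (12 each way, mean log2 CPM at least 0), those with no overlap over 16 libraries, those called under morphine, up to 4 per role list, and those at the edges. Others are named because they overlap or lie beside these. Members and lists were chosen with earlier results of these data known. Promoter sequences came from RefSeq on GRCm38.p6.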

Additional observations from a re-analysis of the deposited data

Results flagged for a closer look

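In each named member and group of 4 libraries, the highest and the lowest library were compared with the rest. In 15 of 260 such groups 1 library lay far from the other 3. Chance gives about 1 in 20, so the count was near that of chance and nothing is read from it. KO morphine replicate 1 was the library in Gm16251 (0.633 CPM, the others 0 to 0.0515) and Igsf23 (0.38 CPM, the others 0 to 0.0503), 2 of the genes that were lowest in KO. KO morphine replicate 4 stood apart in Gipr (3.58 CPM, the others 2.06 to 2.26), Ppp1r13l (3.81 CPM, the others 3.02 to 3.07) and Tmem160 (11.6 CPM, the others 13.0 to 13.3), and KO morphine replicate 2 in Cd3eap (11.0 CPM, the others 9.56 to 9.74). Among KO naive libraries, replicate 1 stood apart in Cd3eap (11.0 CPM, the others 9.82 to 9.87) and Exoc3l2 (0.613 CPM, the others 0.526 to 0.540), replicate 2 in Tmem160 (14.4 CPM, the others 11.4 to 11.6), replicate 3 in Gpr4 (3.17 CPM, the others 3.77 to 3.86) and replicate 4 in Irf2bp1 (43.0 CPM, the others 45.4 to 45.6). Among WT libraries, WT naive replicate 2 stood apart in Mill2 (1.98 CPM, the others 1.06 to 1.11), WT morphine replicate 2 in Trappc6a (6.05 CPM, the others 4.87 to 4.92), replicate 3 in Trim28 (122 CPM, the others 129 to 130) and replicate 4 in Crxos (1.25 CPM, the others 1.52 to 1.58).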

How the results depend on the processing

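The limits are few libraries per group, pools of 2 animals, and under 10 counts per library in some groups for Ceacam9, Gm16251 and Igsf23. The naive genotype count of 6 became 3 with a stricter filter, 11 with DESeq2's Wald test, 1 in the window from 11 to 19 Mb and 3 with the replicate block. The morphine genotype count of 1 became 2 with DESeq2 size factors, 2 with a stricter filter, 2 with the filter of 10 counts in 4 libraries, 4 with DESeq2's Wald test, 0 with only the groups compared and 0 in the narrower window. The average count of 15, an alternative contrast added after seeing the data, became 23 with DESeq2's Wald test and 8 in the narrower window. The WT morphine count of 1 became 2 with a stricter filter, 2 with DESeq2's Wald test, 0 with only the groups compared and 0 in the narrower window, and the KO morphine count of 10 became 5 there. With 1 library left out, the counts ran from 2 to 10 (naive genotype), 0 to 4 (morphine genotype), 12 to 16 (average), 0 to 0 (interaction), 0 to 3 (morphine in WT) and 3 to 12 (morphine in KO). The naive count of 6 fell to 2 or 3 without any 1 of the 4 KO naive libraries or WT naive replicate 2 or 3, and was 10 without WT naive replicate 1. The morphine genotype count was 0 without WT morphine replicate 2 or KO morphine replicate 2, 2 without WT naive replicate 1, 3 without WT morphine replicate 3 and 4 without KO morphine replicate 1. The KO morphine count was 3 to 6 without any 1 KO naive library or KO morphine replicate 1 or 2. The WT morphine count was 0 without WT morphine replicate 1, and 2 or 3 without WT naive replicate 1 or 4, WT morphine replicate 3, or KO morphine replicate 1 or 4. With 1 library left out, Apoc1's morphine value in WT ran from -0.16 to 0.17. Its main value, -0.03, turned to 0.17 without WT naive replicate 2, 0.03 without WT naive replicate 3 and 0.06 without WT morphine replicate 3. Replicate numbers did not pair the libraries: deviations of same-numbered libraries correlated from -0.298 to 0.146, 3 of 24 pairs were over 0.1, and 2 of 16 libraries were closest to their own number. Of 288 alternative values of single members in the morphine comparisons, 232 kept their direction and side of the threshold, 53 were no longer past it and 3 reversed. Of 3044 alternative genotype values, read as sizes without a threshold, 3036 moved by less than the spread between replicates and 8 by more. Leaving out 1 library can hardly move a value that far, and many left-out libraries were not in the comparison. This count is therefore no evidence of stability. As calls, Ceacam9 and the pair Gm16251 and Igsf23 were lost between naive genotypes with the replicate block, the pair also with no filter, and Ceacam9 with only the groups compared, as was Trappc6a under morphine. The causes were not tested.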
